A study of Rattus norvegicus with 17 samples.

Results

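Slc17a7 and Slc17a6 encode the vesicular glutamate transporters VGLUT1 and VGLUT2. They were taken as the 2 rows ENSRNOG00000020650 and ENSRNOG00000016147 of a table of 32494 Ensembl genes, counted in the spinal cords of 17 rats. The study had picked Slc17a7 from these rats, by contrasts of its group C with its groups A, B and E (described next), so its differences between groups are given here as a description and without a test. Slc17a6 stands beside it for its function. No rule on its values was used, although results of these data were known when it was chosen. Both genes passed the filter on low counts that left 15460 genes. Slc17a7 is named so beside its identifier in the material of the study, whereas the identifier of Slc17a6 was supplied with its name, and an annotation that pairs identifiers with names was not analyzed here.

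The rats were young adult female Sprague-Dawley rats in 5 groups, and each library was made from the cervical, thoracic and lumbar cord of 1 rat. Group A (n = 4) had a sham injury and a sham stimulation, group B (n = 3) a spinal cord injury (SCI) and sham stimulation, group C (n = 3) SCI and stimulation, group D (n = 2) SCI, stimulation and pimozide at 1 mg/kg, and group E (n = 5) a sham injury and stimulation. SCI here means a moderate thoracic contusion. Electrodes were placed in every group on the third day after injury or sham injury, in the nucleus raphe magnus, a midline nucleus of the brainstem that sends serotonergic fibers to the cord. Stimulation was brief, on the same day, and the cords were taken directly after it. Pimozide is a dopamine receptor antagonist that also blocks 5-HT7 receptors. The letter in the sample titles and the design text make group E stimulated, but the treatment label of its 5 rats reads unstimulated; they are treated as stimulated here, and every contrast with group E rests on that. Library totals ranged from 9852873 to 14137717 counts, and levels are in CPM, counts scaled to a fixed library total, after TMM scaling, an edgeR factor that corrects for differences in RNA composition. Nothing in the labels ties rats to a litter or day, but 4 rats are numbered 69 to 76 (1 of group A, 1 of group E and both of group D) and 13 are numbered 82 to 95.

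Vesicular glutamate transporters load glutamate into synaptic vesicles, driven by the proton gradient across the vesicle membrane, and their presence makes a neuron glutamatergic. In the cord, VGLUT2 is the main form of the excitatory neurons of the gray matter. VGLUT1 protein is found mostly in the terminals of large myelinated afferents and of corticospinal fibers, whose cell bodies, and most of their mRNA, lie outside the cord. A count in these libraries is of RNA in the cord blocks. In such bulk tissue, fewer cells of a type and less RNA per cell cannot be told apart.

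The 250 bases before the start of each gene are shown because they lie just upstream of the 2 transporters and differ in composition. The sequences are from RefSeq in build GRCr8, which is not the build of the counts, and both lie on the plus strand of chromosome 1, at chr1:104785955-104786204 for Slc17a7 and chr1:110348197-110348446 for Slc17a6. Capitals mark the GC box GGGCGG or its reverse complement CCGCCC.
Slc17a7: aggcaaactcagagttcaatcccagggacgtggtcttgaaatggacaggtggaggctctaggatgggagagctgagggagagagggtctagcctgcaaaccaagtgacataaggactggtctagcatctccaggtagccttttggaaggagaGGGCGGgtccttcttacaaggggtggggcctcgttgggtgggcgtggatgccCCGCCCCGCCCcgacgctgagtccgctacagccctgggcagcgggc
Slc17a6: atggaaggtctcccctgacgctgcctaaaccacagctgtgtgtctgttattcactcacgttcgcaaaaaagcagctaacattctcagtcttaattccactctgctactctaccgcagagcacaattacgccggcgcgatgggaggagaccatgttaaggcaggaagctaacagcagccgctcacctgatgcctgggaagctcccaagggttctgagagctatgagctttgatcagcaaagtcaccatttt

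The Slc17a7 window is 61.2% G and C and holds the GC box at 3 positions, 2 of which overlap. The Slc17a6 window is 50.8% G and C and holds none, against a median of 51.2% over the 33469 rat promoters of the same table, of which 30.5% hold a GC box on either strand. The cAMP response element TGACGTCA, present in 1.59% of these promoters, and the TATA letters TATAAA (reverse complement TTTATA), present in 12.9%, were found in neither window. The shorter core TGACG (reverse complement CGTCA), present in 18.2% of the promoters, was found 1 time in the Slc17a6 window and not in that of Slc17a7. These matches describe the letters only.

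Slc17a7 was a low transcript in every rat. In group A it had 56 counts (5.83 CPM) in rat 70, 53 (4.15 CPM) in rat 82, 18 (1.71 CPM) in rat 83 and 43 (4.24 CPM) in rat 84. In group E it had 42 counts (3.57 CPM) in rat 69, 93 (7.26 CPM) in rat 85, 51 (3.57 CPM) in rat 86, 48 (4.50 CPM) in rat 87 and 82 (7.17 CPM) in rat 88. Rat 83 was thus the low animal among the intact rats, and rats 85 and 88 were the high ones.

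In the injured rats without stimulation (group B), Slc17a7 had 39, 33 and 22 counts, or 3.58, 3.17 and 2.12 CPM in rats 91, 94 and 95. After SCI and stimulation (group C) it had 3, 14 and 5 counts, or 0.261, 1.29 and 0.434 CPM in rats 89, 90 and 93. With pimozide (group D) it had 14 and 29 counts, or 0.997 CPM in rat 75 and 2.63 CPM in rat 76. Each rat of group C was below each rat of groups A, B and E, the groups against which the study picked Slc17a7. Rat 75 of group D was within the range of group C.

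Counting error is large at these counts. The exact 95% Poisson interval around the 3 counts of rat 89 ran from 0.0537 to 0.761 CPM, and that around the 14 counts of rat 90 from 0.704 to 2.16 CPM. In rat 95, the lowest of group B, it ran from 1.33 to 3.21 CPM, so that the intervals of rats 90 and 95 overlapped while those of rats 89 and 93 (0.141 to 1.01 CPM) were below that of rat 95. Such intervals cover counting error only.

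Slc17a6 rested on far more counts, 1243 to 3268 per rat, with a Poisson interval of 106.6 to 119 CPM in the rat with the fewest. In group A it was at 217, 213, 207 and 191 CPM in rats 70, 82, 83 and 84. In group E it was at 236, 231, 229, 238 and 232 CPM in rats 69, 85, 86, 87 and 88, a spread of 1.73% (SD over mean), close to the 1.88% that counting alone gives. All 5 rats of group E were above all 4 of group A.

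Among the injured rats, Slc17a6 was at 158, 182 and 160 CPM in rats 91, 94 and 95 of group B. It was at 130.0, 155 and 195 CPM in rats 89, 90 and 93 of group C, and at 178 and 113 CPM in rats 75 and 76 of group D. All injured rats except rat 93 were below every intact rat, and rat 93 was above rat 84 of group A alone. The share of all genes ordered in this way is not given here. Taken by pairs of groups, 15.1% of all genes were lower without overlap in group B than in group A. That share was 12% for group C against E and 20.3% for group D against E. The groups C and D were spread more widely than the others, by 20.4% and 31.9% against 8.18% in group B and 5.61% in group A.

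**Figure D1:**
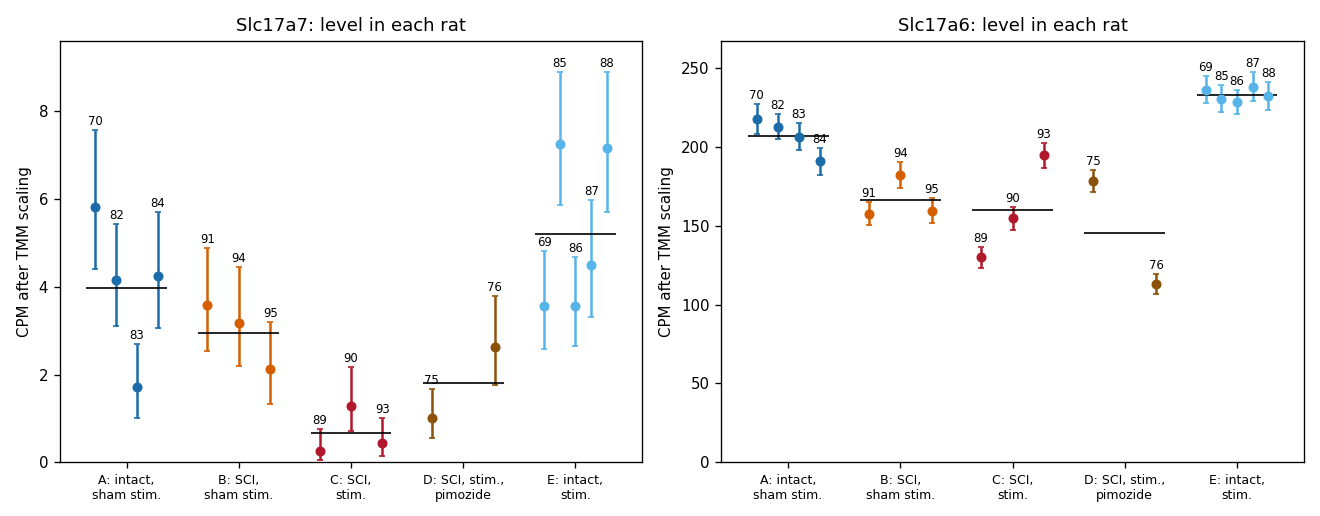
Level of Slc17a7 (left) and Slc17a6 (right) in CPM after TMM scaling for each of the 17 rats, with rat numbers, exact 95% Poisson intervals as bars and group means as lines; group E is shown as stimulated, as its titles say. The 3 rats of group C had 0.261 to 1.29 CPM of Slc17a7, a range that also holds rat 75 of group D at 0.997 CPM, and Slc17a6 was highest in the 5 rats of group E, at 229 to 238 CPM.

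The order of the group means of Slc17a7 was E, A, B, D, C. They were 5.21 ± 1.87 CPM (SD, n = 5) in group E, 3.98 ± 1.70 (SD, n = 4) in A, 2.95 ± 0.753 (SD, n = 3) in B, 1.81 ± 1.16 (SD, n = 2) in D and 0.661 ± 0.550 (SD, n = 3) in C. All neighbors in this order overlapped, and group C was separate from groups A, B and E, on whose contrasts with group C the gene was picked. For Slc17a6 the order was E, A, B, C, D, with 233 ± 4.04 CPM (SD, n = 5), 207 ± 11.6 (SD, n = 4), 166 ± 13.6 (SD, n = 3), 160 ± 32.6 (SD, n = 3) and 146 ± 46.4 (SD, n = 2). Here E and A were separate, A and B were separate, and B, C and D overlapped.

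The contrast of injured with intact rats asks what SCI did to the 2 transporters. For Slc17a6, which loads vesicles in most excitatory neurons of the cord, the mean of the 2 injury contrasts (B against A and C against E) was a log2(FC) of -0.43 (SE 0.093, 95% interval -0.63 to -0.23). This is 0.742 of the intact level, and its adjusted p was 0.0019 (quasi-likelihood test of edgeR, Benjamini-Hochberg adjustment over 15460 genes). In that contrast 17.9% of all genes passed an FDR of 0.05 as lower and 21.0% as higher, and 7.81% of genes had a lower log2(FC) than Slc17a6. By the rule of the study, which also asks for an absolute log2(FC) above 1, Slc17a6 would not be called, as 7.3% of all genes were.

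Taken contrast by contrast, Slc17a6 fell in stimulated rats with injury, ±SCI(st), by 0.55 on the log2 scale (SE 0.129, edgeR adjusted p = 0.0053), with all 3 rats of group C below all 5 of group E, as was so for 12% of all genes. There 11.3% of all genes passed the FDR as lower. In ±SCI(0) the log2(FC) was -0.31 (SE 0.134, 95% interval -0.60 to -0.03, adjusted p = 0.14 by edgeR, with 2.72% of all genes passing as lower), although the 3 rats of group B were all below the 4 of group A, as was so for 15.1% of all genes. Fitted on groups A and B alone, the adjusted p was 0.015, where 1244 of 14657 genes passed as lower against 421 of 15460 in the fit of all rats. The exact test that the methods name gave an adjusted p of 0.038, with 715 of 22143 genes passing as lower. In ±st/SCI(0), where rat 93 overlapped with group A, it was -0.37 (SE 0.134, adjusted p = 0.055 by edgeR, with 7.08% of all genes passing as lower), and 1 of the 7 fits that leave out a rat called it. That was the fit without rat 93 (-0.53, adjusted p = 0.0065 by edgeR), which called 4949 genes in all against 3380 with every rat, whereas without rat 89 the value was -0.24 (adjusted p = 0.30 by edgeR).

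The same injury contrasts for Slc17a7 use group B or C and are given as values only. Its fitted log2(FC) was -0.42 (SE 0.439) in ±SCI(0), where groups A and B overlapped, since rat 83 of group A was below all 3 rats of group B. It was -2.59 (SE 0.540) in ±st/SCI(0) and -2.98 (SE 0.520) in ±SCI(st). In these contrasts 4 and 12 of the 15460 genes had a lower value, and group C did not overlap with groups A and E, as was so in the same direction for 12.5% and 12% of all genes. Without rat 90, the highest of group C, the values were -3.47 and -3.87. In ±SCI(0) the value was -0.19 among the rats numbered from 82.

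Group D differs from the stimulated intact rats of group E both by injury and by pimozide. Group D took no part in the choice of Slc17a7 but group E did, so the value for Slc17a7 is a description: its fitted log2(FC) in D against E was -1.55 (SE 0.516). Both rats of group D were below all 5 of group E, as were 20.3% of all genes, and 11.7% of genes passed the FDR as lower. Slc17a6 fell by 0.68 on the log2 scale (SE 0.151, adjusted p = 0.0039 by edgeR), and without rat 76 its value was -0.38 (adjusted p = 0.20 by edgeR). For Slc17a7, leaving out rat 75 gave -0.98 and leaving out rat 76 gave -2.37.

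Both rats of group D are numbered up to 76, together with only 1 rat of group E, so the number of the rat and the treatment can hardly be told apart in this contrast. With a term for the 2 runs of numbers the log2(FC) of Slc17a7 was -1.63 and that of Slc17a6 -0.72 (adjusted p = 0.022 by edgeR). Within the lower numbers, rat 69 of group E had 3.57 CPM of Slc17a7 against 0.997 and 2.63 in group D, and 236 CPM of Slc17a6 against 178 and 113.

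The contrast ±st(SCI) asks what stimulation did in injured rats, and is the contrast in which the study found Slc17a7. The mean of Slc17a7 in group C was 0.224 of that in group B, a fitted log2(FC) of -2.16 (SE 0.575), and 6 of 15460 genes had a lower value. The 3 rats of group C were below the 3 of group B, as was so for 2.94% of all genes. Over all genes, edgeR's quasi-likelihood test called 0 genes in ±st(SCI) (0.0%), with 476 at an unadjusted p under 0.05; DESeq2 called 0, with 414 at an unadjusted p under 0.05, and the exact test that the methods name called 33. Leaving out rats of these groups in turn moved the log2(FC) of Slc17a7 between -3.05, without rat 90, and -1.78.

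Slc17a6 did not pass the test in this contrast. Its log2(FC) in ±st(SCI) was -0.06 (SE 0.143, 95% interval -0.36 to 0.24, adjusted p = 1.00 by edgeR). The interval includes -0.31, its value in ±SCI(0). Rats 89 and 90 were below group B and rat 93 above it, and without rat 89 the sign turned, to 0.07.

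Pimozide before stimulation in injured rats is addressed by ±pim(st/SCI), with 2 rats in group D. Both are numbered up to 76 and all 3 rats of group C from 82, so pimozide and the run of numbers cannot be told apart within this contrast. A term for the runs, which is then estimated from groups A and E, took the number of genes called from 5 to 1. Slc17a7 had a fitted log2(FC) of 1.43 (SE 0.652) that is given as a value, because group C is its denominator. Rat 76 was above group C, at 2.63 CPM, and rat 75 was within it, and the value was 2.31 without rat 90 and 0.61 without rat 76. For Slc17a6 the log2(FC) was -0.13 (SE 0.160, 95% interval -0.47 to 0.21, adjusted p = 0.87 by edgeR), with 0.0323% of all genes called in either direction. Without rat 76 it was 0.16. The 2 rats of group D were in opposite order for the transporters: rat 75 had the more Slc17a6 and the less Slc17a7.

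Stimulation in intact rats, ±st(0), uses groups A and E, which both stood against group C in the choice of Slc17a7. Slc17a7 had a fitted log2(FC) of 0.39 (SE 0.368), and the groups overlapped. Among the 13 rats numbered from 82, which leave out the single lower-numbered rat of each group, it was 0.73, and with single rats left out it was lowest without rat 83, at 0.14, and highest without rat 70, at 0.62. Slc17a6 had a log2(FC) of 0.17 (SE 0.117, 95% interval -0.07 to 0.42, adjusted p = 0.72 by edgeR), and 0 genes (0.0%) passed the FDR in this contrast, where 1297 had an unadjusted p under 0.05 and DESeq2 called 38. All 5 rats of group E were above all 4 of group A, as was so for 1.28% of all genes. A 2-sided exact permutation test of log2(CPM + 0.5) gave p = 0.0159 for Slc17a6, the smallest value that 126 splits of these rats allow (adjusted p = 0.0476 over 3 such tests, against 15460 genes in the edgeR test). Fitted on groups A and E alone, the adjusted p over all genes was 0.35 by edgeR's quasi-likelihood fit and 0.22 by its exact test, so Slc17a6 was not called in ±st(0) across all genes.

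Whether the effect of stimulation on Slc17a6 differed between injured and intact rats was tested with the interaction (C - B) - (E - A). It was -0.23 (SE 0.184, 95% interval -0.62 to 0.16, adjusted p = 1.00 by edgeR), and 0 genes were called, with 635 at an unadjusted p under 0.05 and 0 called by DESeq2. The corresponding value for Slc17a7, -2.55 (SE 0.685), contains the contrast on which it was picked.

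**Figure D2:**
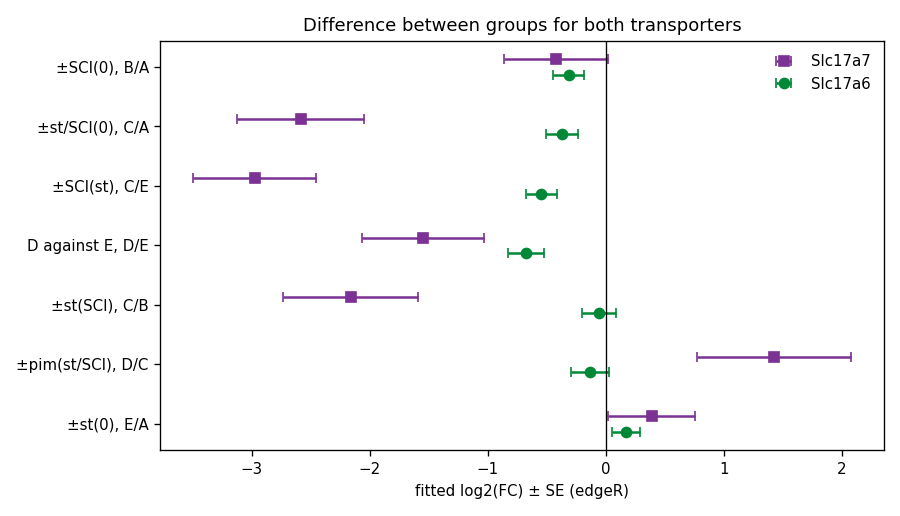
Fitted log2(FC) with SE from edgeR's model of all 17 rats for Slc17a7 (squares) and Slc17a6 (circles) in 7 contrasts, numerator and denominator groups after the name. Slc17a7 ranged from -2.98 to 1.43 and Slc17a6 from -0.68 to 0.17; values of Slc17a7 are a description, since they use rats on which it was chosen.

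The share of Slc17a7 in the counts of both genes takes library size and TMM scaling out of the comparison. It is not corrected for transcript length and says nothing of which gene is the more abundant. The share was 0.820% to 2.61% in group A (median 2.04%), 1.49% to 3.05% in group E (median 1.85%) and 1.31% to 2.22% in group B (median 1.71%). In group C it was 0.200%, 0.826% and 0.222% in rats 89, 90 and 93, with Wilson 95% intervals of 0.0680% to 0.586%, 0.493% to 1.38% and 0.0950% to 0.520%. In group D it was 0.556% in rat 75 and 2.28% in rat 76.

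The ranges of groups A, B and E overlapped. Rat 90 of group C had about the share of rat 83 of group A, 0.826% against 0.820%, and rats 89 and 93 had the lowest shares of all 17 rats, followed by rat 75. The mean share was 0.306 percentage points higher in group E than in group A.

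The other genes of glutamate transmission could not be followed. Lists of glutamate synthesis and uptake, ionotropic and metabotropic receptors, the synaptic vesicle cycle, the remaining members of the SLC17 family, and markers of neuron types, ganglia, roots, glia and cord levels were written by symbol, but none of their genes is among the 100 identifiers with a name here, apart from the 2 transporters themselves. Slc17a8, the gene of the remaining transporter VGLUT3, has no identifier here either. The tissue could therefore not be checked against markers of spinal neurons or of dorsal root ganglia.

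The list of blood and marrow genes was the 1 list that matched in full, with 10 of 10 genes: the globins Hbb and Hba-a1, the heme enzyme Alas2, the granule genes Mpo, Elane, Camp and Ngp, the calprotectin genes S100a8 and S100a9, and the platelet gene Ppbp. The study reported these on the same rats as moved by stimulation, so their direction is not independent evidence. Their summed level was 157 to 793 CPM in group A, 218 to 304 in B, 504 to 1271 in C, 189 to 270.5 in D and 188 to 477 in E. Group C, where the mean of Slc17a7 was lowest, was above groups B, D and E but within reach of group A, where rats 82 and 83 had 793 and 750.5 CPM.

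Without the globins, the other 8 genes summed to 112 to 139 CPM in group C and to 8.74 to 81.98 CPM in the remaining 14 rats. In group A these 8 genes summed to 8.74, 28.4, 47.8 and 80.3 CPM in rats 70, 82, 83 and 84. The same rats had 5.83, 4.15, 1.71 and 4.24 CPM of Slc17a7. Of the 10 genes, edgeR called 0 in ±st(SCI), where 0 of all genes were called. Their median log2(FC) there was 2.35 against 0.0039 over all genes. It called 0 in ±SCI(0) (median -1.01 against -0.02), where 9.64% of all genes were called as higher and 2.72% as lower, and 6 as higher in ±SCI(st) (median 1.67 against -0.02), where 17.4% of all genes were called as higher, and 1 as higher in ±st/SCI(0), where 14.8% were. In ±pim(st/SCI) it called 0, where 0.0323% of all genes were called in either direction, and the median was -1.94 against -0.02. It also called 0 in ±st(0) (median -0.67 against 0.0086), where 0 of all genes were called. In D against E it called 0 (median -0.26 against -0.03), where 2373 of 15460 genes were called as higher and 1806 as lower. It called 0 in the mean injury effect too (median 0.51 against -0.02), where 21.0% of all genes were called as higher and 17.9% as lower. The part of blood and marrow RNA in the values of Slc17a7 was not tested.

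**Figure D3:**
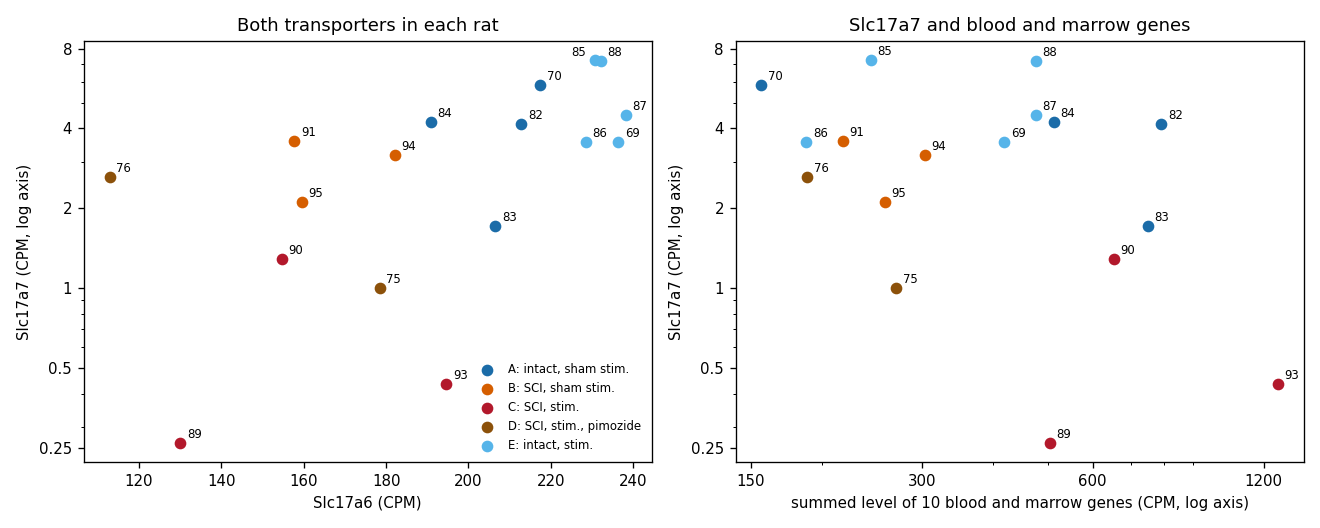
Left, Slc17a7 (CPM, log axis) against Slc17a6 (CPM) in each of the 17 rats; right, Slc17a7 against the summed level of 10 blood and marrow genes (CPM, both axes log), with rat numbers and colors by group. Rats 89 and 93 had the least Slc17a7, 0.261 and 0.434 CPM, and had 130.0 and 195 CPM of Slc17a6. Their summed blood genes were at 504 and 1271 CPM, with 388 and 1159 CPM from the 2 globins and 115 and 112 CPM from the other 8 genes.

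The transporters differed in how many genes shared their pattern. Over 17 rats, Pearson's r of log2(CPM + 0.5) was computed with 14514 genes of at least 1 CPM. The 8 genes most like Slc17a6 had r from 0.977 to 0.991, and 546 genes (3.76%) were above 0.9. The 8 most like Slc17a7 had r from 0.814 to 0.872, and 0 genes were above 0.9. The values of Slc17a7 rest on few counts, and the points share their libraries and groups, so these values are a description.

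The closest gene to Slc17a6 was ENSRNOG00000004753 (r = 0.991), with mean levels of 146, 110.2, 105, 94.9 and 167 CPM in groups A to E, in the order of Slc17a6 itself. The closest to Slc17a7 was ENSRNOG00000061731 (r = 0.872), with 183, 157, 134, 161 and 182 CPM. These have no name here. When each rat's deviation from its group mean was used in place of its level, 153 genes (1.05%) exceeded r = 0.9 with Slc17a6, led by ENSRNOG00000056558 (r = 0.971).

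The levels of the transporters correlated with r = 0.555 over the 17 rats, which placed Slc17a6 at rank 1093 among the 14514 genes for Slc17a7, and Slc17a7 at rank 3855 for Slc17a6. For deviations from the group means, r was -0.20. Of the genes with a name here, Slc17a6 was the closest to Slc17a7 in level.

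**Figure D4:**
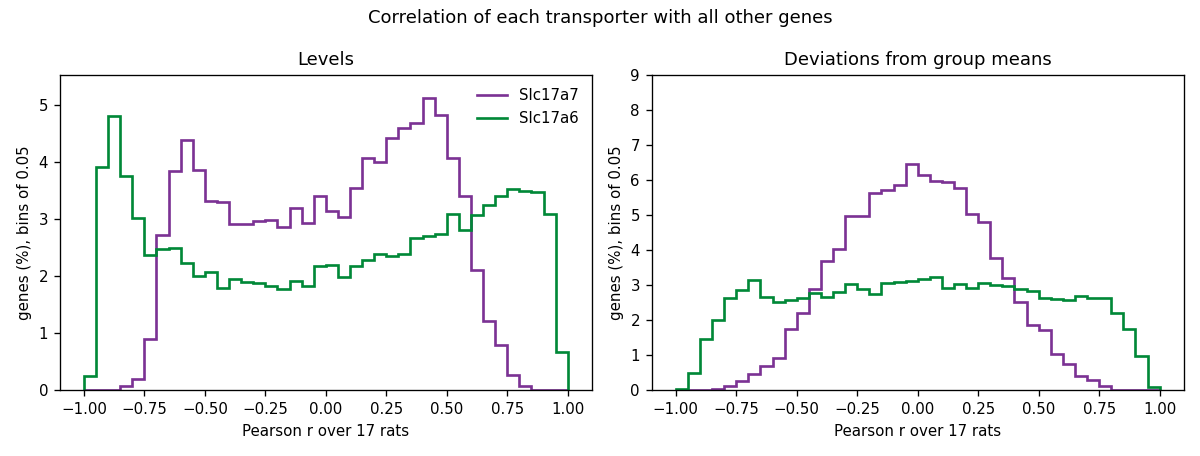
Distribution of Pearson's r over 17 rats between each transporter and 14514 other genes, for levels (left) and deviations from group means (right), as the percentage of genes in bins of 0.05, with a vertical scale of its own in each panel. Slc17a6 had 546 genes above 0.9 in level and 153 in deviation, and Slc17a7 had 0 in each.

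Slc17a7 varied more between rats of one group than most genes of its level. The biological coefficient of variation, which edgeR estimates as the spread beyond counting error, was 37.0% against a median of 19.9% over 1196 genes within 0.5 log2 units of its mean level, and 91.6% of these varied less. For Slc17a6 it was 12.6% against 9.33% over 976 genes, with 79.8% varying less.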

How the data were processed

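Spinal cord RNA of 17 rats was measured, 1 ribosomal RNA-depleted library per rat. The authors trimmed adapters with Trim Galore, aligned single-end reads with STAR and counted them per Ensembl gene; the deposited values are whole-number counts, not normalized. Per the submitters' processing notes the versions were 0.4.1 and 2.5.0a. The methods and these notes name different rat genome builds, and the strand setting is not given in the sources used here. STAR's count leaves out reads that map to several places.

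Samples were grouped by the letter in their titles. Counts were filtered with filterByExpr, scaled by TMM and fitted with glmQLFit in edgeR 4.0.16 (R 4.3.3), 1 coefficient per group, and tested with glmQLFTest; calls are genes with an FDR below 0.05. The methods name edgeR's exact test, which was run as an alternative, as were DESeq2 1.42.0, RLE and total-count scaling, no filter and 1 CPM in 3 rats, the groups of a contrast alone, a term for the runs of rat numbers, the study's limit of 1 on the absolute log2(FC), a pseudocount of 2 in place of 0.5 for r, and each rat left out. The exact test was run on the groups of a contrast alone, with total-count scaling, and only genes without counts in them were removed. It therefore differs from the main fit in more than the test. SE is the log2(FC) over the square root of F. A fit of the 13 rats numbered from 82 was added after seeing the data. CPM used total counts on all genes. The steps were tested on simulated data. Summaries used Python 3.11.15, pandas 2.3.3 and scipy 1.17.1.

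The members and gene lists were chosen with earlier results of these data known. Genes named are the members, the blood and marrow list, and the genes of highest r; the rule allowed 8 per member, of which the leading ones are printed because nearly all lack a name. Lists matched under 80% were not counted. Replicates are separate rats per the titles. Total counts per rat set counting error. D against E and ±st(0) were planned as tests of Slc17a7 too, but are given as values because groups A and E took part in its choice. The 3 permutation tests include 2 on Slc17a7 that are not reported for the same reason.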

Additional observations from a re-analysis of the deposited data

How the results depend on the processing

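Slc17a6 kept its direction and its FDR call in the mean injury effect (8 other settings) and in ±SCI(st) (9 other settings), and also with each rat left out, at -0.51 to -0.37 and -0.70 to -0.42; the fold limit of the study would remove both calls. No paired analysis was possible because the groups share no rat number. The call of Slc17a6 in ±SCI(0) appeared on the 2 groups alone (-0.30) and in the exact test (-0.25), and in ±st/SCI(0) with RLE scaling (-0.37, adjusted p = 0.049), DESeq2 (-0.37, adjusted p = 0.030) and the 13 rats numbered from 82 (-0.35, adjusted p = 0.047). The value of Slc17a7 in D against E, a description, was -1.63 with the term for rat numbers. On the 13 rats numbered from 82, Slc17a7 was -0.19 in ±SCI(0) and 0.73 in ±st(0). The cause of these changes was not tested.

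Leaving out rats in turn gave these ranges of log2(FC). For Slc17a6, ±SCI(0) gave -0.38 to -0.28 and ±st/SCI(0) gave -0.53 to -0.24. Its sign turned in ±st(SCI), which ran from -0.22 to 0.07, being 0.01 without rat 94 and 0.07 (0.0694) without rat 89. It also turned in ±pim(st/SCI), which ran from -0.50 to 0.16, being 0.03 when rat 93 was dropped and 0.16 when rat 76 was. The others were 0.14 to 0.20 for ±st(0), -1.05 to -0.38 for D against E and -0.39 to -0.10 for the interaction. For Slc17a7, ±SCI(0) gave -0.67 to -0.19, ±st(SCI) gave -3.05 to -1.78, ±pim(st/SCI) gave 0.61 to 2.31 and ±st(0) gave 0.14 to 0.62. The remaining ranges for it were -3.47 to -2.21 (±st/SCI(0)), -3.87 to -2.60 (±SCI(st)) and -2.37 to -0.98 (D against E). A fit that left 1 rat in group D assumed that it varied like the other groups.

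The number of genes called depended on the fit. In ±SCI(0) it was 1912, with 3339 on the 2 groups alone, 3173 by the exact test, 820 with the fold limit of the study, and 880 to 1793 with rats left out. In ±st(SCI) it was 0, with 3 on the 2 groups alone and 33 by the exact test, and 0 with any rat left out. In ±pim(st/SCI) it was 5, with 20 without a filter, 1 with the term for rat numbers, 9 on the 2 groups alone, 80 by the exact test, 77 by DESeq2, and 0 to 60 with rats left out. In ±st(0) it was 0, with 51 by the exact test, 38 by DESeq2 and 0 to 95 with rats left out. In ±st/SCI(0) it was 3380, with 2251 on the 2 groups alone, 1103 with the fold limit and 1425 to 4949 with rats left out. In ±SCI(st) it was 4429, with 1285 with the fold limit and 2081 to 5509 with rats left out. In D against E it was 4179, with 1845 with the term for rat numbers, 1202 with the fold limit and 683 to 5117 with rats left out, and in the mean injury effect 6025, with 1129 with the fold limit and 4684 to 6786 with rats left out. The interaction called 0 to 3 genes. Total-count scaling raised the share of calls that were higher from 78.0% to 88.1% in ±SCI(0) and, in ±st/SCI(0), from 67.6% to 78.4%. In ±pim(st/SCI) 4 calls were higher under both scalings, of 5 and of 4. Of the 8 genes most like each transporter, 3 to 7 stayed for Slc17a7 and 5 to 8 for Slc17a6 with a rat left out.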

Other observations

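Among the 9 intact rats of groups A and E, Slc17a6 and the summed blood and marrow genes gave r = -0.33 (2-sided exact permutation p = 0.398) and Spearman's rho = -0.37 (exact permutation p = 0.336), and r = -0.49 without the 2 rats farthest from the median of the blood genes. After adjustment over 3 relations p was 0.398 for r and 0.385 for rho. The other two relations involve Slc17a7, in whose choice these rats took part, and are given as values only. Slc17a7 gave r = 0.358 and rho = 0.333 with Slc17a6, and r = -0.01 without the 2 rats farthest in Slc17a6. It gave r = -0.45 and rho = -0.33 with the blood and marrow genes, and r = -0.67 without the 2 rats farthest in those. The injured rats were not used here, since groups of injured and intact rats differ in level. Groups A and E were pooled without a term for group, although every rat of group E was above every rat of group A in Slc17a6. A difference between these groups can therefore enter the relations with Slc17a6.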
